A study of Drosophila melanogaster with 6 samples.

Results

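The genes of the DNA replication and mitosis machinery were examined in the midgut, the digestive part of the intestine, of Drosophila melanogaster females. The members were 35 genes chosen by symbol, of 17116 symbols in the count files, and all 35 were found there; 33 had enough reads to be tested, among 8607 genes tested in all. RNA sequencing had been done on 3 pools of midguts from mated females and 3 from virgin females, each pool holding 30 guts. The mated pools came from females aged 8 days and taken 3 days after mating, and the virgin pools from unmated females of the same age. Every fly carried the genotype w1118, given in the labels as wild-type and carrying a loss of the eye pigment gene white, and both groups were reared under standard conditions. No label ties a pool to its own culture, so p-values cover no more than the variation among these 6 pools, which may be technical. Levels are in CPM, the usual unit for the reads of a gene relative to all gene reads of its library, with library sizes scaled by the trimmed mean of M-values (TMM), and genes passed at an adjusted p below 0.05 in edgeR's quasi-likelihood test, corrected over all tested genes by the Benjamini-Hochberg method.

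Before a cell copies its DNA, the origin recognition complex (Orc proteins), Dup and the Mcm helicase are loaded on origins, and geminin blocks a second loading. Cyclin D with Cdk4 and cyclin E with Cdk2 drive entry into S phase through the transcription factor E2f1, and Dacapo, encoded by dap, inhibits cyclin E with Cdk2. Cyclins A, B and B3 with Cdk1, switched on by the phosphatase String (stg), then drive mitosis. In the adult fly midgut the intestinal stem cells divide, whereas their daughters become enterocytes by endocycles, which copy DNA without mitosis, so replication genes are used by both and mitotic genes mainly by stem cells. In the ovary, nurse cells load the oocyte with transcripts of cell cycle genes that the early embryo uses for its first divisions.

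The libraries held 15902696 to 29021297 gene counts, and virgin 1 and virgin 2, with 29021297 and 28794618, were almost equally deep. One library stood apart. In virgin 2, 15 of 20 germline and oocyte markers had at least 2 times the level of any other library, and the list summed to 27.4, 37.4 and 33.7 CPM in mated 1, 2 and 3, against 33.9, 227 and 33.0 CPM in virgin 1, 2 and 3. The oocyte transcript osk had 0, 0.127 and 0 CPM in mated 1, 2 and 3, against 0, 22.7 and 0 CPM in virgin 1, 2 and 3, and the yolk protein receptor yl had 0, 0.127 and 0 CPM in mated 1, 2 and 3, against 0, 29.8 and 0 CPM in virgin 1, 2 and 3. The background of the list in the other 5 libraries came mostly from gcl, at 13.8 to 20.9 CPM, and exu, at 9.23 to 11.3 CPM. The marker grk went the other way, with 0.844 CPM in virgin 2 and 1.13 to 2.99 CPM in the other 5 libraries. BicC and cup had 0 counts in every library. Of 14 follicle cell and eggshell markers, 10 were at 0 in virgin 2, as in every other library but mated 2, where 8 were. The yolk protein Yp1 had 91.2, 46.3 and 36.5 CPM in mated 1, 2 and 3, against 92.6, 147 and 40.1 CPM in virgin 1, 2 and 3. The labelled tissue matched its markers, with 29741, 22912 and 25431 CPM in mated 1, 2 and 3, against 24746, 24851 and 21439 CPM in virgin 1, 2 and 3 for the enterocyte protease alphaTry. The 6 enterocyte markers summed to 94977, 77361 and 85214 CPM in mated 1, 2 and 3. In virgin 1, 2 and 3 they summed to 74624, 66590 and 59106 CPM. Of the 6, 1 (Jon65Aiii, adjusted p = 0.00168) passed edgeR's test and was higher in mated midguts, against 4.10% of all tested genes in either direction. The 8 progenitor markers (stem cells and their undifferentiated daughters) summed to 97.4, 96.4 and 99.3 CPM in mated 1, 2 and 3, against 126, 75.7 and 114 CPM in virgin 1, 2 and 3. Virgin 2 was thus the lowest library for this sum, but not for Dl, klu and zfh2 taken alone. All 6 visceral muscle markers passed edgeR's test and rose in mated midguts, at 3357, 2876 and 2259.7 CPM in mated 1, 2 and 3, against 1612, 1289.5 and 1391 CPM in virgin 1, 2 and 3 for their sum; 3 of the 6 passed without virgin 2. The part of muscle in the members' values was not tested. In pooled tissue, fewer cells of a type and less RNA per cell cannot be told apart.

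Most members had low levels in the midgut. Leaving virgin 2 aside, 8 of 35 averaged under 1 CPM over the other 5 libraries, 26 averaged under 5 CPM and 4 reached 10 CPM. The shares of all tested genes under these limits are not given here, so the members are not ranked against other genes. Per kilobase of exon, the mean levels over these 5 libraries were highest for E2f1 at 14.9 CPM, for the small subunit of ribonucleotide reductase RnrS at 14.9 CPM, for geminin at 12.8 CPM and for CycD at 5.93 CPM. E2f1 and RnrS did not differ in this order beyond the spread of their libraries. The 5 lowest means were 0.141 CPM per kilobase for aurA, 0.164 for CycB3, 0.218 for pim, 0.249 for the replication gene Mcm10 and 0.339 for stg. Other mitotic genes lay higher in the order, such as CycA at 1.31 and ncd at 1.20 CPM per kilobase. At the lowest of these levels a library holds few reads of a gene: aurA had 2 to 8 counts and pim 0 to 10 counts in each of these 5 libraries. Where pim had 0 counts, in mated 1 and virgin 1, levels of up to 0.137 and 0.0996 CPM remain possible, covering counting error only. aurA and pim were the 2 members too scarce to be tested.

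**Figure D1:**
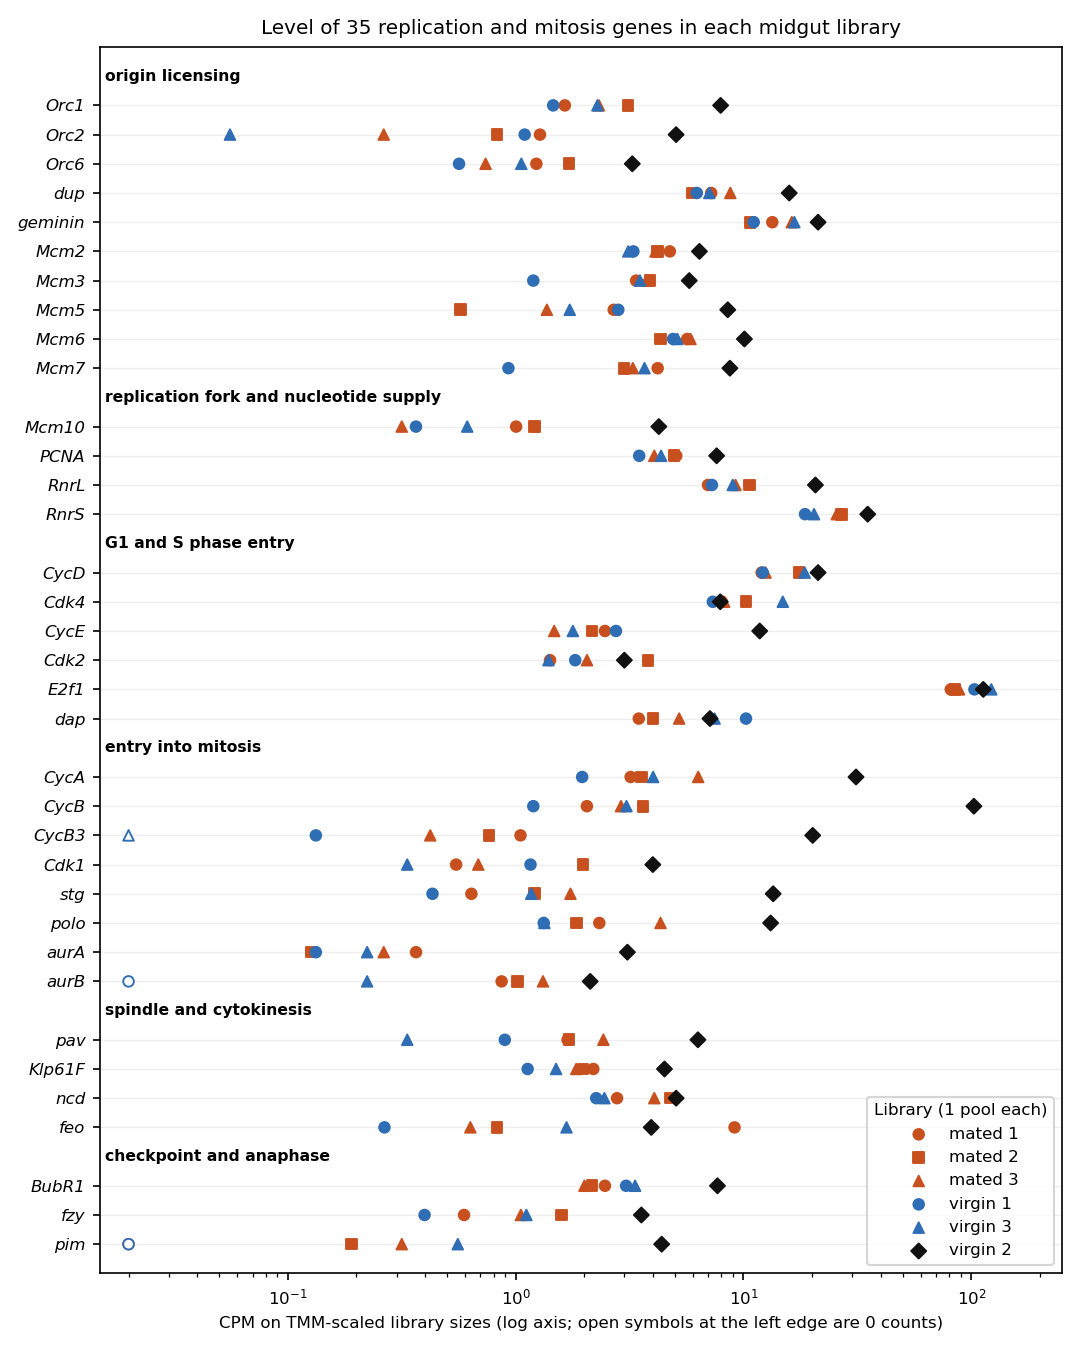
Level of each of the 35 members (rows, grouped by role) in each library, as CPM on a log axis, with 1 symbol per library and open symbols at the left edge for 0 counts. The black diamonds of virgin 2 lie at the right of 30 of the 35 rows, with CycB at 103 CPM, whereas E2f1 is above 80 CPM in every library.

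Virgin 2 was the highest of the 6 libraries for 30 of 35 members, or 85.7%, against 24.3% of all tested genes. It was at least 2 times the highest other library for 18 of 35, or 51.4%, against 1.56% of all tested genes. Among the tested genes, 16 of the 33 members were among the 134 that reached this ratio, which makes 48.5% of the members and 11.9% of the 134. Genes read almost only in virgin 2, such as osk, were not tested and are missing from the 134 and from the shares of all tested genes. Just above the ratio of 2 lay Cdk1 at 2.03, Klp61F at 2.05 and Mcm7 at 2.07, and just below it RnrL at 1.95 and Orc6 at 1.89. The members are not independent of one another, since they were measured in the same 6 libraries. The part of oocyte transcripts in these levels was not tested.

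Among the genes of entry into mitosis, 7 of 8 were at least 2 times higher in virgin 2 than in any other library, with a median ratio of 6.34. CycB (chromosome 2R, 22803521 to 22806948, build dm6 as for all positions), the B-type cyclin of mitosis, had 2.06, 3.63 and 2.90 CPM in mated 1, 2 and 3, against 1.20, 103 and 3.07 CPM in virgin 1, 2 and 3. Its ratio of 28.3 to the highest other library was the largest of all 8607 tested genes. Genes read almost only in virgin 2 were too scarce elsewhere to be tested, and osk and yl among them had ratios of 178 and 234. CycB3 (chromosome 3R, 24867934 to 24870816), a further mitotic cyclin, had 1.05, 0.763 and 0.422 CPM in mated 1, 2 and 3, against 0.133, 20.1 and 0 CPM in virgin 1, 2 and 3, and ranked 3rd of all tested genes by the same ratio. CycA (chromosome 3L, 11826719 to 11833578), the cyclin of late S phase and mitosis, had 3.20, 3.56 and 6.33 CPM in mated 1, 2 and 3, against 1.96, 31.2 and 4.01 CPM in virgin 1, 2 and 3. The phosphatase gene stg (chromosome 3R, 29251826 to 29255800) had 0.639, 1.21 and 1.74 CPM in mated 1, 2 and 3, against 0.432, 13.5 and 1.17 CPM in virgin 1, 2 and 3. These 4 genes ranked within the first 19 of the tested genes, and without virgin 2 their libraries overlapped between the groups except for CycB3.

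The mitotic kinases were also highest in virgin 2, at lower levels. The kinase polo, which acts in spindle assembly and cytokinesis, had 2.33, 1.84 and 4.32 CPM in mated 1, 2 and 3, against 1.33, 13.2 and 1.34 CPM in virgin 1, 2 and 3. The centrosomal kinase aurA had 0.365, 0.127 and 0.264 CPM in mated 1, 2 and 3, against 0.133, 3.09 and 0.223 CPM in virgin 1, 2 and 3. The kinase aurB, which works at centromeres and the midzone, had 0.868, 1.02 and 1.32 CPM in mated 1, 2 and 3, against 0, 2.12 and 0.223 CPM in virgin 1, 2 and 3, a ratio of 1.61 that made it the only one of the 8 below 2. Cdk1, the partner of the mitotic cyclins, had 0.548, 1.97 and 0.685 CPM in mated 1, 2 and 3, against 1.16, 4.0 and 0.334 CPM in virgin 1, 2 and 3. For Cdk1 and aurA the mated libraries and virgin 1 and 3 overlapped.

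Genes of the checkpoint and of anaphase followed. The spindle checkpoint gene BubR1 had 2.47, 2.16 and 2.00 CPM in mated 1, 2 and 3, against 3.05, 7.69 and 3.34 CPM in virgin 1, 2 and 3. The securin pim, which holds back the separation of sister chromatids, had 0, 0.191 and 0.316 CPM in mated 1, 2 and 3, against 0, 4.37 and 0.557 CPM in virgin 1, 2 and 3. The Cdc20 gene fzy, an activator of the anaphase-promoting complex that marks securin for destruction, had 0.594, 1.59 and 1.05 CPM in mated 1, 2 and 3, against 0.398, 3.56 and 1.11 CPM in virgin 1, 2 and 3. All 3 were over 2 times higher in virgin 2 than elsewhere, with pim the farthest at 7.85. Of the spindle and cytokinesis genes, the kinesin pav of the midzone had 1.69, 1.72 and 2.43 CPM in mated 1, 2 and 3, against 0.896, 6.31 and 0.334 CPM in virgin 1, 2 and 3, and the spindle kinesin Klp61F had 2.19, 1.97 and 1.85 CPM in mated 1, 2 and 3, against 1.13, 4.50 and 1.5 CPM in virgin 1, 2 and 3. The minus-end kinesin ncd had 2.79, 4.77 and 4.06 CPM in mated 1, 2 and 3, against 2.26, 5.06 and 2.45 CPM in virgin 1, 2 and 3, so that virgin 2 and mated 2 were nearly equal. The midzone bundling gene feo stood out in another library: it had 9.13, 0.827 and 0.633 CPM in mated 1, 2 and 3, against 0.266, 3.94 and 1.67 CPM in virgin 1, 2 and 3. Mated 1 alone held 200 of its reads, against 13 and 12 in mated 2 and 3, and feo was not among the genes highest in virgin 2; it was singled out after its values were seen.

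**Figure D2:**
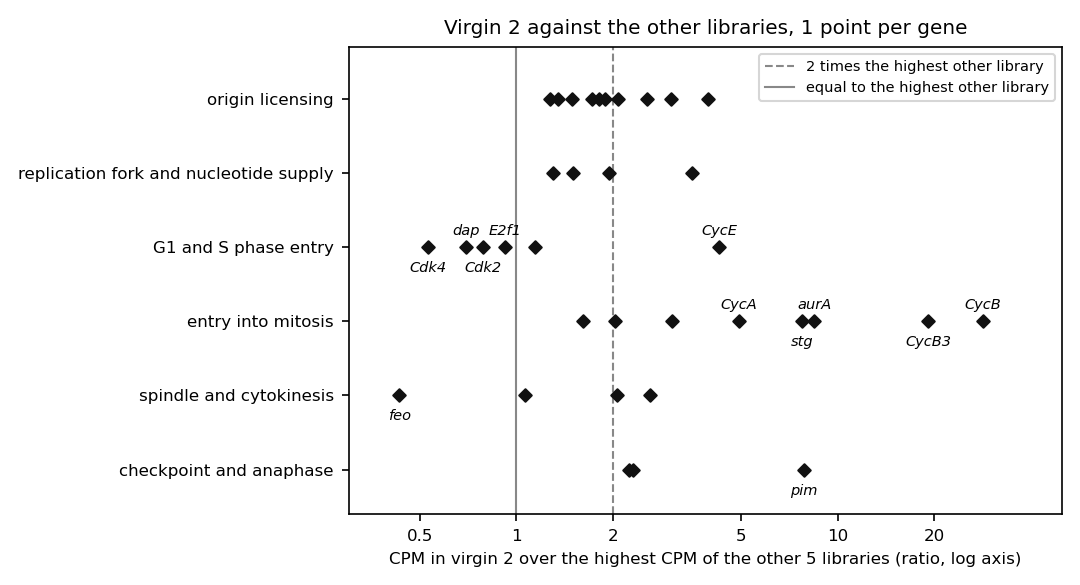
CPM of virgin 2 divided by the highest CPM among the other 5 libraries, on a log axis, for each member by role (rows); the dashed line marks a ratio of 2 and the solid line a ratio of 1. Genes of entry into mitosis reach 28.3, whereas 4 of the 6 genes of G1 and S phase entry lie below 1.

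Licensing genes were also highest in virgin 2, all 10 of them, but with a smaller median ratio of 1.85. Mcm5 (chromosome 3R, 10788524 to 10791150), a helicase subunit, had 2.69, 0.573 and 1.37 CPM in mated 1, 2 and 3, against 2.82, 8.53 and 1.73 CPM in virgin 1, 2 and 3. Mcm7, another subunit, had 4.20, 2.99 and 3.27 CPM in mated 1, 2 and 3, against 0.930, 8.72 and 3.68 CPM in virgin 1, 2 and 3, and reads of its annotated antisense neighbour were kept apart by strand. Of the origin recognition complex, Orc1 had 1.64, 3.12 and 2.32 CPM in mated 1, 2 and 3, against 1.46, 7.94 and 2.28 CPM in virgin 1, 2 and 3. For these 3 genes the mated libraries overlapped virgin 1 and 3. Orc2 had 1.28, 0.827 and 0.264 CPM in mated 1, 2 and 3, against 1.10, 5.06 and 0.0557 CPM in virgin 1, 2 and 3, with 1 read in virgin 3. The helicase loader dup, the fly Cdt1, had 7.22, 5.98 and 8.75 CPM in mated 1, 2 and 3, against 6.24, 15.9 and 7.08 CPM in virgin 1, 2 and 3, and its inhibitor geminin had 13.4, 10.7 and 16.3 CPM in mated 1, 2 and 3, against 11.1, 21.2 and 16.7 CPM in virgin 1, 2 and 3. The remaining helicase subunits and Orc6 had ratios of 1.35 (Mcm2), 1.49 (Mcm3), 1.72 (Mcm6) and 1.89 (Orc6). Outside virgin 2 they lay at 3.12 to 4.75, 1.20 to 3.88, 4.33 to 5.85 and 0.564 to 1.72 CPM.

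At the fork, PCNA, the sliding clamp, had 5.07, 4.96 and 4.06 CPM in mated 1, 2 and 3, against 3.49, 7.62 and 4.35 CPM in virgin 1, 2 and 3. Mcm10, which joins helicase and polymerase, had 1.00, 1.21 and 0.316 CPM in mated 1, 2 and 3, against 0.365, 4.25 and 0.613 CPM in virgin 1, 2 and 3. The large subunit of ribonucleotide reductase, RnrL, had 6.99, 10.6 and 9.23 CPM in mated 1, 2 and 3, against 7.27, 20.7 and 8.97 CPM in virgin 1, 2 and 3. The reductase makes the building blocks of DNA. The ratio in virgin 2 was highest for Mcm10 at 3.52 and lowest for RnrS at 1.30.

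Of the 6 genes of G1 and S phase entry, CycE and CycD were highest in virgin 2. CycE (chromosome 2L, 15727581 to 15748150) had 2.47, 2.16 and 1.48 CPM in mated 1, 2 and 3, against 2.76, 11.8 and 1.78 CPM in virgin 1, 2 and 3, a ratio of 4.28. CycD had 12.0, 17.6 and 12.5 CPM in mated 1, 2 and 3, against 12.2, 21.2 and 18.6 CPM in virgin 1, 2 and 3, with virgin 2 slightly above virgin 3. Cdk4, its kinase, had 8.04, 10.2 and 8.23 CPM in mated 1, 2 and 3, against 7.34, 7.91 and 14.9 CPM in virgin 1, 2 and 3, and Cdk2, the kinase of cyclin E, had 3.00 CPM in virgin 2 and up to 3.82 CPM, in mated 2, elsewhere. E2f1, dap, Cdk4 and Cdk2 were, with feo, the 5 members for which another library was above virgin 2. Per kilobase of exon, CycB was the highest member in virgin 2, at 33.7 CPM, against 20th place over the other 5 libraries, at 0.843 CPM. The 15 mitosis members summed to 29.9, 27.4 and 30.3 CPM in mated 1, 2 and 3, against 14.3, 225 and 21.3 CPM in virgin 1, 2 and 3. The 14 members of licensing, fork and nucleotide supply summed to 85.2, 82.1 and 86.0 CPM in mated 1, 2 and 3, against 63.3, 161 and 78.7 CPM in virgin 1, 2 and 3. The ratio of virgin 2 to the mean of virgin 1 and 3 was 12.6-fold for the mitosis sum, 2.26-fold for the replication sum and 1.08-fold for the sum of G1 and S phase entry. The 3 mitotic cyclins gave 154 of the 225 CPM of the mitosis sum in virgin 2. By role, the ratio was 22.7-fold for entry into mitosis, 3.77-fold for spindle and cytokinesis and 3.69-fold for checkpoint and anaphase. In a wider list, described below, it was 1.45-fold for replication genes and 1.26-fold for mitosis genes.

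**Figure D3:**
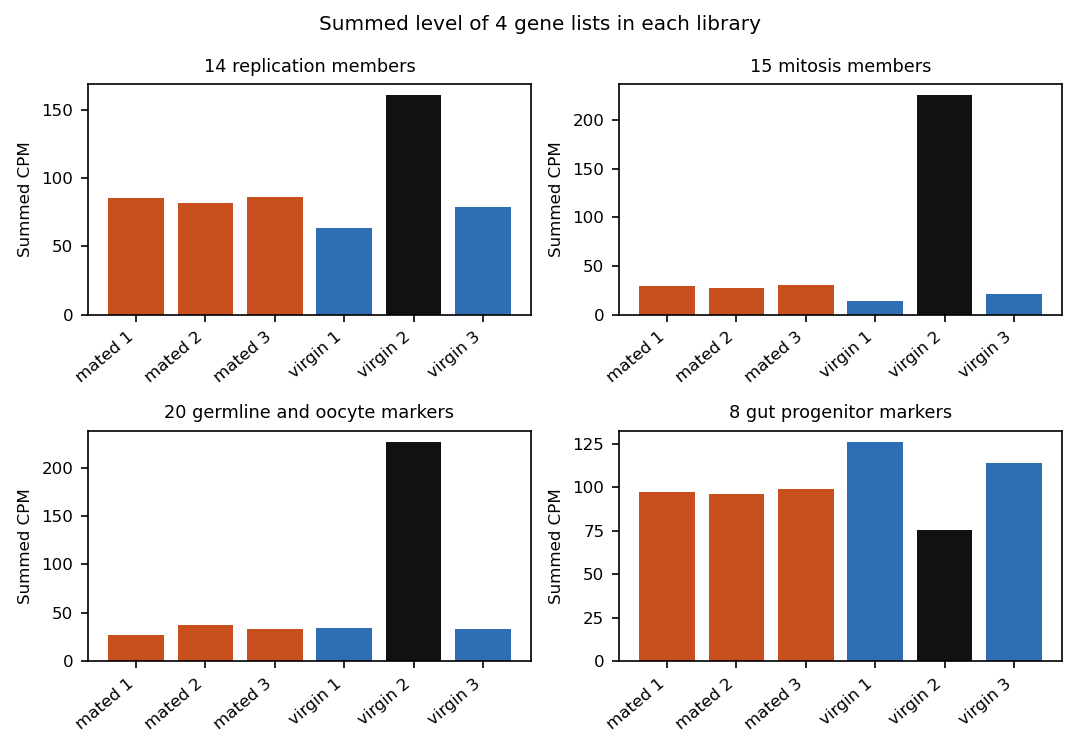
Summed CPM (vertical axes, from 0) of the 14 replication members, the 15 mitosis members, 20 germline and oocyte markers and 8 gut progenitor markers in each library (bars). Virgin 2, in black, is the highest bar of the first 3 panels, at 161, 225 and 227 CPM, and the lowest of the progenitor panel, at 75.7 CPM.

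The comparison of mated with virgin midguts addressed changes of the female intestine with reproduction, here in its cell cycle genes. With all 6 libraries, 0 of 33 tested members passed edgeR's test, against 4.10% of all tested genes (2.47% higher and 1.63% lower in mated midguts). At an unadjusted p below 0.05 there were 3 members, all lower in mated midguts, against 17.2% of all tested genes, and DESeq2 passed 0. The median log2 fold change, mated over virgin, was -0.41 for the members and -0.045 for all tested genes, and 26 of 33 members were negative, against 55.0% of all tested genes. These values carried virgin 2 in the virgin mean: CycB stood at -3.66 ± 2.02 (SE, adjusted p = 0.471), CycB3 at -3.17 ± 2.37 (SE, adjusted p = 0.589) and stg at -2.08 ± 1.32 (SE, adjusted p = 0.504). Their standard errors exceeded 1 on the log2 scale, and for each of them virgin 2 was the only virgin library above all mated ones.

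Without virgin 2, the sign of the log2 fold change turned for 18 of the 33 tested members. The share of all tested genes whose sign turned is not given here, so this count is not read as a trait of the members. Again 0 of 33 members passed edgeR's test, against 2.59% of all tested genes (1.75% higher and 0.841% lower in mated midguts), and 6 had an unadjusted p below 0.05 (4 higher and 2 lower in mated midguts), against 14.7%. The median log2 fold change was 0.45 for the members and -0.0022 for all tested genes. Negative values were seen in 8 of 33 members, against 50.2% of all tested genes. With library-size scaling in place of TMM the median of the members without virgin 2 was 0.20 and that of all genes -0.25.

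Among the 15 mitosis members, 12 of the 13 tested were positive without virgin 2, whereas 50.2% of all tested genes were negative. Of the 51 tested mitosis genes of a wider list, described below, 28 were positive and 23 negative, with a median of 0.092. The summed level of that list in mated libraries was 0.963 of its level in virgin 1 and 3, against 1.64 for the 15 members. CycB3 stood at 3.20 ± 1.39 (SE, adjusted p = 0.321) on 23, 12 and 8 reads in mated 1, 2 and 3, against 4 and 0 reads in virgin 1 and 3. aurB stood at 3.40 ± 1.35 (SE, adjusted p = 0.282), with 19, 16 and 25 reads in mated 1, 2 and 3, against 0 and 4 reads in virgin 1 and 3. The value of pav was 1.62 ± 0.73 (SE, adjusted p = 0.339) and that of polo 1.09 ± 0.55 (SE, adjusted p = 0.393). Those of CycA, CycB and stg were 0.57 ± 0.46 (SE, adjusted p = 0.624), 0.45 ± 0.53 (SE, adjusted p = 0.751) and 0.61 ± 0.85 (SE, adjusted p = 0.801). None of these differences passed. The summed level of these 15 genes, 27.4 to 30.3 CPM in mated libraries, lay above the 14.3 and 21.3 CPM of virgin 1 and 3. In mated 1, feo gave 9.13 of the 29.9 CPM. Without feo the sums were 20.8, 26.5 and 29.7 CPM in mated 1, 2 and 3, against 14.1 and 19.7 CPM in virgin 1 and 3. The progenitor marker sum lay the other way, at 96.4 to 99.3 CPM in mated libraries, against 126 and 114 CPM in virgin 1 and 3. The markers were not alike: 4 of the 8 had every mated library below virgin 1 and 3, against 17.1% of all tested genes. Of the 7 tested, 6 were negative without virgin 2 and 1, Dl, was positive, at 0.057 ± 0.35 (SE, adjusted p = 0.962). The part of either cell type in these differences was not tested.

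RnrS had the smallest unadjusted p of the members with a positive value without virgin 2. It had 26.7, 27.0 and 25.7 CPM in mated 1, 2 and 3, against 18.6, 35.1 and 20.4 CPM in virgin 1, 2 and 3, and the log2 fold change stood at 0.10 ± 0.23 (SE, adjusted p = 0.873) with all libraries and 0.45 ± 0.16 (SE, adjusted p = 0.230) without virgin 2. All 3 mated libraries were above virgin 1 and 3 and below virgin 2. In all, 8 of 35 members (22.9%) had every mated library above virgin 1 and 3, against 16.4% of all tested genes. These were RnrS, Mcm2, CycB3, polo, aurB, pav, Klp61F and ncd, and 6 of the 8 are mitosis genes. The wider list showed no such lean, with 11 of 40 replication genes and 14 of 57 mitosis genes placed in this way. Only 3 members (8.57%), E2f1, dap and BubR1, had every mated library below virgin 1 and 3, against 17.1% of all tested genes. Of the 10 licensing genes, 8 were positive and 2 negative without virgin 2, with a median of 0.38 and values between -0.54 ± 0.67 (SE, adjusted p = 0.761) for Mcm5 and 0.67 ± 0.50 (SE, adjusted p = 0.584) for Mcm3. The 38 tested replication genes of the wider list had 24 positive and 14 negative values, with a median of 0.057. Of all tested genes, 50.2% were negative. PCNA, often read as a marker of S phase, had -0.14 ± 0.35 (SE, adjusted p = 0.884) with all libraries and 0.27 ± 0.33 (SE, adjusted p = 0.752) without virgin 2.

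**Figure D4:**
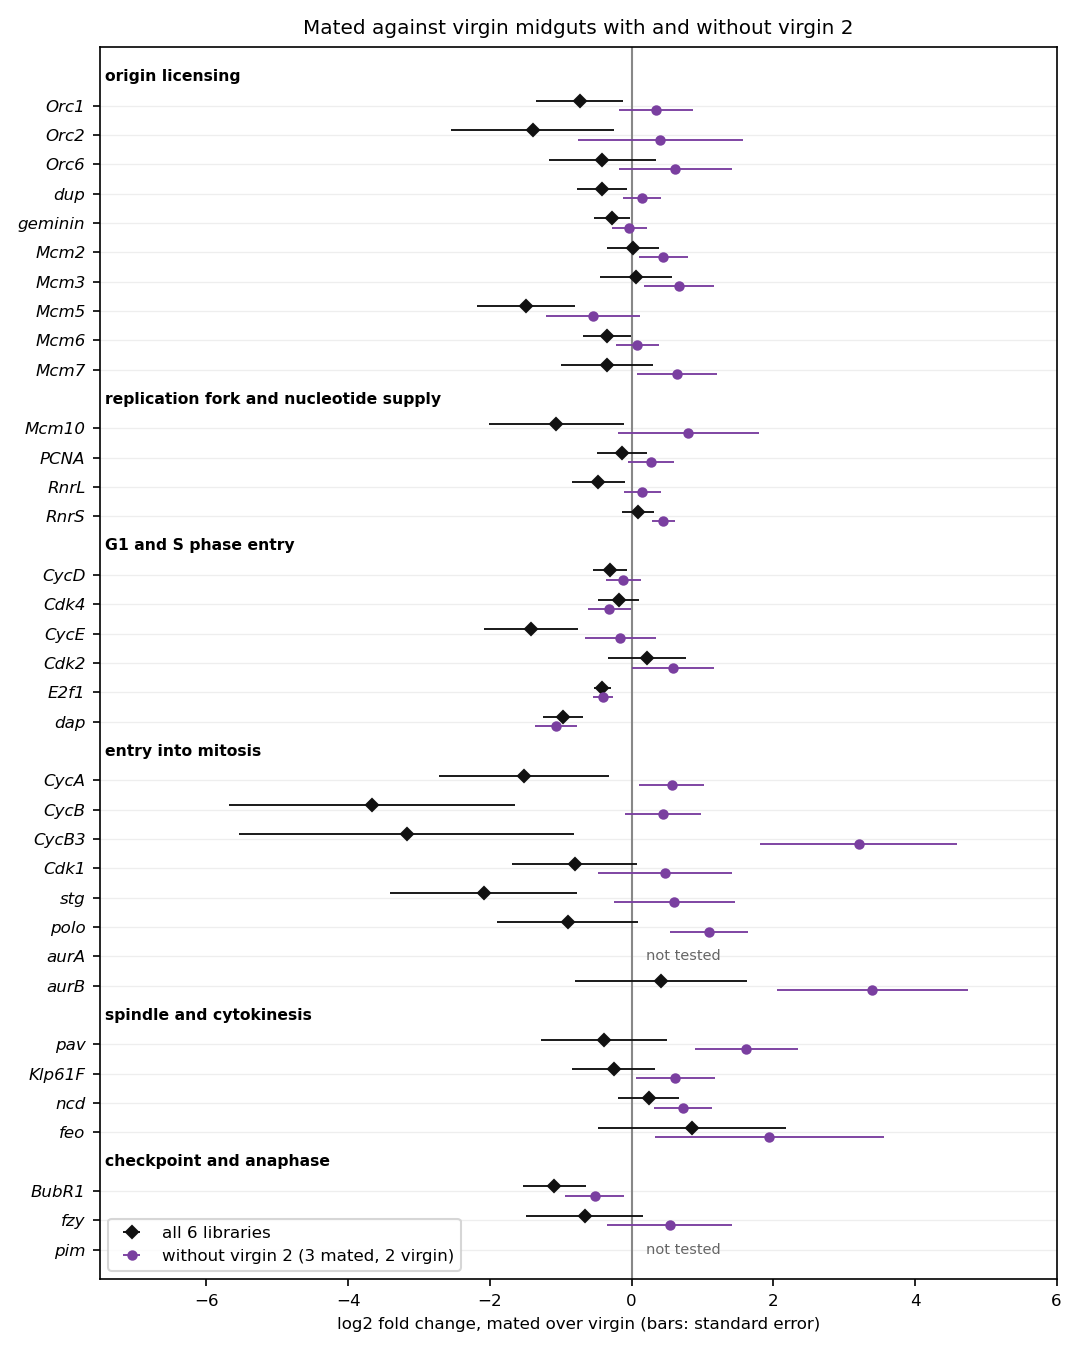
Log2 fold change, mated over virgin, of each tested member (rows, grouped by role) with its standard error, from all 6 libraries (black diamonds) and without virgin 2 (purple circles). The values without virgin 2 lie right of 0 for 25 of 33 members, whereas E2f1 and dap lie left of 0 in both, at -0.41 and -0.97 with all libraries.

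The 2 members nearest to the threshold were regulators of S phase entry, E2f1 and dap, and both had values of similar size without virgin 2. E2f1 (chromosome 3R, 21620304 to 21660871), the activating E2F transcription factor, had 81.2, 84.8 and 88.3 CPM in mated 1, 2 and 3, against 103, 113 and 122 CPM in virgin 1, 2 and 3. Every mated library was below every virgin library. The log2 fold change stood at -0.41 ± 0.12 (SE, adjusted p = 0.100) with all libraries and -0.40 ± 0.14 (SE, adjusted p = 0.203) without virgin 2. The inhibitor gene dap (chromosome 2R, 9712321 to 9716256), the fly p21/p27 homologue, had 3.47, 4.01 and 5.22 CPM in mated 1, 2 and 3, against 10.3, 7.12 and 7.47 CPM in virgin 1, 2 and 3, again with no overlap. The log2 fold change stood at -0.97 ± 0.29 (SE, adjusted p = 0.0959) with all libraries and -1.06 ± 0.30 (SE, adjusted p = 0.113) without virgin 2. With BubR1, at -1.09 ± 0.45 (SE, adjusted p = 0.238), they were the only 3 members (8.57%) whose mated libraries all lay below the virgin ones, against 12.3% of all tested genes; 0 members had all mated libraries above all virgin ones, against 11.6%. Both E2f1 and dap passed when libraries were scaled by size alone (edgeR adjusted p of 0.0138 for E2f1 and 0.0266 for dap), a setting that moved the median of all genes to -0.30. Without virgin 2 BubR1 was at -0.52 ± 0.42 (SE, adjusted p = 0.621). The other S phase regulators stood at -0.12 ± 0.25 (SE, adjusted p = 0.877) for CycD, -0.31 ± 0.30 (SE, adjusted p = 0.693) for Cdk4, -0.16 ± 0.51 (SE, adjusted p = 0.923) for CycE and 0.59 ± 0.58 (SE, adjusted p = 0.698) for Cdk2 without virgin 2.

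A wider list of 100 further replication and mitosis genes, of which 97 matched symbols in the files and 89 were tested, was compared in the same way. With all libraries 0 of 89 passed edgeR's test, against 4.10% of all tested genes, and DESeq2 passed 0. At an unadjusted p below 0.05, 4 were lower and 0 higher in mated midguts, against 17.2% of all tested genes in either direction. The median log2 fold change was -0.30, and 0.066 without virgin 2, where again 0 passed, against 2.59% of all tested genes, and 3 were higher and 1 lower at an unadjusted p below 0.05, against 14.7%. Among the 4 with an unadjusted p below 0.05, the 2 lowest values were those of CDC45L, a partner of the replicative helicase, at -0.65 ± 0.25 (SE, adjusted p = 0.212), and Gnf1, a subunit of the clamp loader, at -0.61 ± 0.24 (SE, adjusted p = 0.222); genes with larger standard errors had lower values, down to -1.84 ± 0.97 (SE, adjusted p = 0.376) for the kinesin sub. CDC45L had 5.30, 5.60 and 5.64 CPM in mated 1, 2 and 3, against 6.81, 10.2 and 8.86 CPM in virgin 1, 2 and 3, so the groups did not overlap. Gnf1 had 12.1, 13.9 and 17.6 CPM in mated 1, 2 and 3, against 18.2, 30.4 and 17.6 CPM in virgin 1, 2 and 3, where mated 3 and virgin 3 were equal to within the precision of the counts.

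Virgin 2 was the highest library for 67 of the 97 further genes (69.1%) and at least 2 times the highest other library for 27 (27.8%), against 24.3% and 1.56% of all tested genes. The 97 include genes too scarce to be tested, and among the 89 tested ones 20 (22.5%) reached the ratio of 2. The germline string homologue twe had 0, 0.509 and 0 CPM in mated 1, 2 and 3, against 0, 5.03 and 0 CPM in virgin 1, 2 and 3. The chromosomal passenger genes Incenp and borr, partners of Aurora B, had 3.11, 1.72 and 3.01 CPM in mated 1, 2 and 3, against 1.59, 8.16 and 0.780 CPM in virgin 1, 2 and 3 for Incenp and 0.365, 0.636 and 1.53 CPM in mated 1, 2 and 3, against 0.133, 4.53 and 0.334 CPM in virgin 1, 2 and 3 for borr. The spindle pole gene asp had 0.959, 0.636 and 1.74 CPM in mated 1, 2 and 3, against 0.797, 9.25 and 1.00 CPM in virgin 1, 2 and 3. Apart from virgin 2, all 4 had levels of at most 3.11 CPM. Without virgin 2 the 2 highest values with an unadjusted p below 0.05 were those of DNApol-alpha73, a subunit of the polymerase that starts new strands, at 2.20 ± 0.81 (SE, adjusted p = 0.241), and shtd, a subunit of the anaphase-promoting complex, at 0.58 ± 0.20 (SE, adjusted p = 0.209). The lower one was fzr, the activator of that complex that turns mitotic cycles into endocycles, with 16.9, 19.8 and 17.6 CPM in mated 1, 2 and 3, against 25.4, 20.6 and 25.5 CPM in virgin 1, 2 and 3 and a value of -0.48 ± 0.17 (SE, adjusted p = 0.206).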

How the data were processed

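RNA of 3 mated and 3 virgin pools was made into stranded mRNA libraries, per the labels' protocols. The submitters' processing notes name CASAVA 1.8.4, STAR, DESeq2 1.42.0 and the build dm6; which annotation release the authors counted on is not named there. Each deposited file gives whole, unnormalized counts of reads for every gene in the layout STAR writes. The reverse-strand count column was used, since only 1.86% to 2.32% of stranded counts were in the forward one, and the 4 summary rows (unmapped reads 5.47% to 12.8%, reads in no gene 4.82% to 8.93%) stayed out.

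The members were given by symbol, and they and the other lists were chosen with earlier results of these data known. The fit used edgeR 4.0.16 in R 4.3.3: filterByExpr, TMM factors (0.860 to 1.13), glmQLFit with robust dispersion and glmQLFTest, two-sided, with group as the only term. Fits without virgin 2 filtered and scaled anew. Standard errors were derived from the F statistic. The pipeline was tested on simulated data with known changes. It recovered 2 of 50 changes of 1.5-fold, 23 of 50 of 2-fold, 38 of 50 of 4-fold and 48 of 50 of 8-fold. Changes of 1.5-fold were thus mostly missed. The changed genes were drawn from all tested genes, with all 6 libraries and none set apart. The recovery therefore need not hold for scarce members or for fits without virgin 2. Replicate pairs differed by more than sampling noise (a chi-square of 23.3 or more for each degree of freedom). Levels per kilobase used exon lengths of the Ensembl annotation of the same assembly, which matched 35 of 35 members and gave all positions. Values per library are printed for the 8 members of highest mean level, those with an unadjusted p below 0.05 in either fit, and those at least 2 times higher in virgin 2. PCNA, ncd and feo, the further genes twe, Incenp, borr, asp and sub, and the markers gcl, exu, yl, grk, BicC, cup, klu, zfh2, alphaTry and Jon65Aiii were chosen after their values were seen. Alternatives were RLE scaling, scaling by library size, testing without a low-count filter, DESeq2, a replicate block, the unstranded column and each library left out; leaving out virgin 2 with library-size scaling was added after seeing the data.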

Additional observations from a re-analysis of the deposited data

How the results depend on the processing

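The number of members passing was 0 with RLE scaling, no low-count filter, DESeq2, the replicate block, the unstranded column and each library left out. It was 2 (E2f1 and dap, both lower) with library-size scaling, with or without virgin 2; the further genes passing were 2 (both lower) with library-size scaling and 0 in all the other settings. Of all tested genes 353 passed, 871 with library-size scaling (146 higher and 725 lower, against 213 and 140), 629 with DESeq2, and 169 to 308 with 1 library left out (225 without virgin 2, 169 without mated 2 and 191 without mated 3). With the replicate number as a block 290 genes and 0 members passed. Deviations of same-numbered libraries correlated at -0.146, -0.0791 and -0.0339, and those of differently numbered ones at -0.0336 to 0.0971. No pairing showed in these values, which cannot tell whether same-numbered pools were handled together. The following changes of sign are of members that passed neither before nor after. With library-size scaling the sign of the log2 fold change turned for Mcm2 (-0.24), Mcm3 (-0.20), RnrS (-0.16), Cdk2 (-0.014), ncd (-0.0053). With the replicate block it turned for Mcm7 (0.091), CycB3 (0.24), pav (0.56), Klp61F (0.020), feo (-0.10). Without virgin 2 and with library-size scaling it turned for Orc1 (0.10), Orc2 (0.19), Orc6 (0.36), Mcm7 (0.34), Mcm10 (0.54), PCNA (0.018), CycA (0.31), CycB (0.19), CycB3 (2.99), Cdk1 (0.29), stg (0.35), polo (0.85), pav (1.41), Klp61F (0.36), fzy (0.28). When 1 library was left out the sign turned at least once for Orc1 (-1.09 to 0.35), Orc2 (-1.94 to 0.41), Orc6 (-0.78 to 0.62), dup (-0.62 to 0.15), Mcm2 (-0.12 to 0.45), Mcm3 (-0.31 to 0.67), Mcm6 (-0.49 to 0.083), Mcm7 (-0.80 to 0.64), Mcm10 (-1.50 to 0.80), PCNA (-0.32 to 0.27), RnrL (-0.70 to 0.15), RnrS (-0.037 to 0.45), Cdk4 (-0.33 to 0.24), Cdk2 (-0.26 to 0.59), CycA (-1.98 to 0.57), CycB (-4.18 to 0.45), CycB3 (-3.70 to 3.20), Cdk1 (-1.57 to 0.47), stg (-2.58 to 0.61), polo (-1.34 to 1.09), aurB (-0.12 to 3.40), pav (-0.85 to 1.62), Klp61F (-0.55 to 0.62), feo (-1.42 to 1.94), fzy (-1.09 to 0.54), given as the lowest to the highest of these values. The sign turned for 18 members without virgin 2, 4 without virgin 1, 2 without virgin 3, 2 without mated 1 (feo and Mcm2), 1 without mated 2 (Cdk2) and 0 without mated 3; leaving out a virgin library leaves 2. A single count was worth 0.0312 to 0.0636 CPM, so depth limits the scarce mitotic genes most.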
